A study of Homo sapiens with 18 samples.

Results

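THP-1 and U937 are human myeloid cell lines that stop dividing and take on macrophage traits when treated with phorbol 12-myristate 13-acetate (PMA). The data described here are the difference between their responses, that is, the PMA effect in THP-1 minus the PMA effect in U937. It was measured on the 12 arrays whose titles name these lines, of 18 arrays in the series, and on 16267 of the 16941 genes named on the array. The 4 groups of 3 arrays were THP-1 or U937 cells treated for 3 days with 30 nM PMA, and the same lines treated as long with dimethyl sulfoxide (DMSO), the solvent of PMA, diluted 1000-fold. All groups grew in RPMI1640 medium with 10% serum, and 1 µg of total RNA from each went onto an Affymetrix exon array. Each line is a single established culture, THP-1 from an acute monocytic leukaemia and U937 from a histiocytic lymphoma, so a difference between them is a difference between these lines and not between cell types. Whether the numbered arrays came from separate cultures is not in the labels, so the p-values rest on a spread that may be technical.

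PMA stands in for diacylglycerol, the lipid messenger that recruits and activates protein kinase C isoforms at membranes. Prolonged activation of the kinase feeds the MAP kinase, AP-1 and NF-kappaB pathways, and myeloid leukaemia lines leave the cell cycle, adhere, and express phagocyte receptors, secreted proteases, chemokines and lysosomal enzymes. Since leukaemia lines are arrested at different stages and carry different lesions, a gene may already be active in one line and silent in another before PMA is added.

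A gene level is the mean of the log2 values of its probe sets, after each array was centred on its own median. A PMA effect is the mean of 3 PMA arrays minus that of 3 DMSO arrays, in log2 units, so that 1 unit is a 2-fold change. Effects and differences are given ± SE from a single limma fit, and group levels ± SD with n = 3. A difference called "greater in THP-1" is above 0 (the gene rose more or fell less in THP-1), and one "greater in U937" is below 0. A level was called low below 5.18, the 30th percentile of all probe sets, where the array measures change only approximately. All p-values are from limma, two-sided, and adjusted over the 16267 genes, and a gene was called at an adjusted p under 0.05. In these bulk samples, fewer cells expressing a gene and less RNA per cell cannot be told apart.

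Both U937 arrays numbered 2 stood apart before any comparison. They shared at most 5 exactly tied values with any other array, against 39 to 116 between THP-1 arrays and 58 to 82 between the other U937 arrays. U937 PMA 2 held 83228 distinct values and the others 214471 to 220516. Array medians ran from 6.18 to 6.95, and correlations within groups from 0.931 to 0.978. Myeloid markers were high in all 12 samples, with a mean level of 8.71 to 8.93 in THP-1 with DMSO and 8.04 to 8.42 in U937 with DMSO, and at least 8 of 9 measured members above the low level on each array. The mean level of T and NK cell markers was 4.58 to 5.58 (2 to 5 of 10 above the low level). That of B cell markers was 4.95 to 5.45 (2 to 4 of 5). Erythroid and megakaryocyte markers lay between 5.50 and 6.24 (5 to 6 of 7). Epithelial and fibroblast markers lay between 4.50 and 5.07 (3 to 5 of 9). The CD3D level was at most 3.99 in any group mean, while NKG7, a granule protein of cytotoxic lymphocytes, had a mean level of 11.10 in U937 and 8.38 in THP-1 with DMSO.

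PMA changed the 2 lines differently at 1133 of 16267 genes (6.97% of those tested), of which 556 were greater in THP-1 (3.42%) and 577 greater in U937 (3.55%). The difference was at least 2-fold in 899 (5.53%). Most called genes responded in a single line: 597 (3.67% of all genes) changed in THP-1 and were not called in U937, and 260 (1.6%) changed in U937 and were not called in THP-1. Another 189 (1.16%) changed the same way in both lines by unequal amounts, and 80 (0.492%) moved in opposite directions. The remaining 7 were called in neither line. The 3 PMA arrays lay beyond the 3 DMSO arrays at 42.4% of genes in THP-1 and 45.7% in U937. PMA alone raised 2441 genes (15%) and lowered 2447 (15%) in THP-1, and raised 2041 (12.5%) and lowered 2212 (13.6%) in U937.

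Whether the replicate numbers pair the samples within each line is not in the labels. With the number as a block, 2127 genes (13.1%) were called for the difference, 1110 greater in THP-1 and 1017 greater in U937, and 1131 of the 1133 genes were called again. Opposite genes then numbered 171. Without both U937 arrays numbered 2, 710 genes were called, 690 of them among the 1133, and 38 were opposite. With U937 pair 2 as the only U937 arrays, all 1133 genes kept the sign of their difference, with a median size of 1.39 against 1.35 over all arrays. The fit that called these genes includes pair 2 and the same THP-1 arrays, so the kept signs are not an independent check. With the values as deposited, without centring, 538 genes were called and 67.3% of these were greater in THP-1, against 49.1% after centring. The median of all genes then shifted from 0.01 to 0.16.

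**Figure D1:**
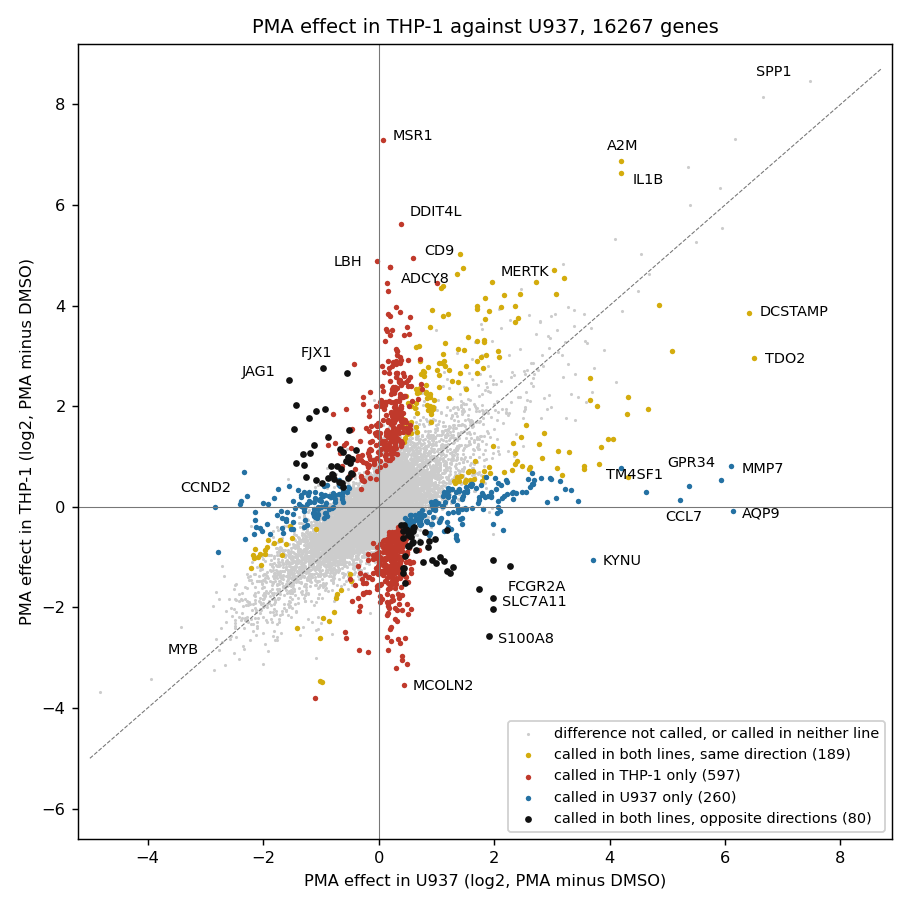
PMA effect in THP-1 (vertical axis, log2) against U937 (horizontal axis, log2) for 16267 genes, with the dashed line marking equal effects. The 597 THP-1-only genes (red) lie along the vertical axis, the 260 U937-only genes (blue) along the horizontal axis, and the 80 opposite genes (black) in the upper left and lower right quadrants.

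The scavenger receptor MSR1, which takes up modified lipoproteins and bacteria, had the largest difference. Its level on the 3 THP-1 DMSO arrays was 3.10, 3.08 and 3.29, and on the THP-1 PMA arrays 10.19, 10.80 and 10.31. In U937 it was 2.75, 2.72 and 2.95 with DMSO and 2.93, 2.76 and 2.98 with PMA. MSR1 was therefore low in both lines at the start, high on all THP-1 PMA arrays, and low on every U937 array. The effect was 7.28 ± 0.17 in THP-1 and 0.08 ± 0.17 in U937, a difference of 7.20 ± 0.24 (adjusted p = 9.63e-09). All 19 of its probe sets showed the same sign.

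DDIT4L, a relative of the stress-induced mTOR inhibitor DDIT4, rose from 5.12, 5.24 and 5.45 to 10.74, 10.89 and 11.07 in THP-1. It lay at 4.57, 4.23 and 4.94 with DMSO and 5.22, 4.92 and 4.74 with PMA in U937, where the groups overlapped. Its difference was 5.25 ± 0.27 (adjusted p = 5.18e-07). ADCY8, an adenylate cyclase stimulated by calcium, went from 4.13, 3.72 and 4.08 to 8.79, 8.79 and 8.68 in THP-1, with all 6 U937 arrays at or below 4.43. The lines did not differ in ADCY8 by a call with DMSO (start difference -0.01 ± 0.16, adjusted p = 0.971), and the difference of effects was 4.58 ± 0.23. The transcription cofactor LBH had a THP-1 effect of 4.89 ± 0.30, a U937 effect of -0.03 ± 0.30 and a difference of 4.92 ± 0.43.

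The lysophosphatidic acid receptor LPAR6 (difference 4.57 ± 0.43) and the tetraspanin CD9 (4.34 ± 0.58) rose in THP-1 by 4.77 ± 0.30 and 4.94 ± 0.41. The U937 effects were 0.20 ± 0.30 and 0.60 ± 0.41. CD9 was measured at 5.98, 5.81 and 5.09 with DMSO and 11.26, 10.95 and 9.50 with PMA in THP-1, so the groups were separate although replicate 3 was the lowest in each. The small GTPase GEM, an inhibitor of voltage-gated calcium channels, rose by 4.29 ± 0.19 in THP-1 (difference 4.12 ± 0.26). MCUB, the inhibitory subunit of the mitochondrial calcium uniporter, rose by 4.45 ± 0.46 in THP-1 from a level that was lower than in U937 (start difference -2.81 ± 0.46, adjusted p = 0.000481). THP-1 ended above U937 for MCUB (end difference 1.49 ± 0.46), and the difference of effects was 4.30 ± 0.65 (adjusted p = 0.00129).

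The 289 genes that rose only in THP-1 by these calls had a median effect of 1.68 in THP-1 and 0.22 in U937. Their median level with DMSO was 5.36 in THP-1 and 5.17 in U937. In 219 of them the lines started within 1 log2 unit, and 109 were low in both lines before PMA. Over all 16267 genes these counts were 14256 and 4243. At the end, 199 were at least 1 unit higher in THP-1 and 3 at least 1 unit higher in U937, against 1171 and 914 of all genes. The class was formed from effects that use the same arrays, so its start and end counts are partly built in.

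In U937 the largest line-specific rise was that of AQP9, a channel for water, glycerol and urea. It was at 3.25, 3.81 and 3.07 on the U937 DMSO arrays and at 9.80, 8.46 and 10.29 on the PMA arrays. In THP-1 it was at 3.36, 3.12 and 3.32 with DMSO and 3.11, 3.16 and 3.30 with PMA, so only the U937 PMA arrays rose above the low level. The difference was -6.22 ± 0.51 (adjusted p = 2.09e-05), from 3 probe sets.

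MMP7, the matrix metalloprotease matrilysin, reached 9.85, 7.66 and 9.28 in U937 with PMA, from 2.83, 2.70 and 2.94. In THP-1 it lay at 2.85, 2.59 and 3.26 and 3.78, 3.86 and 3.51; these groups did not overlap, but the THP-1 effect of 0.82 ± 0.41 was not called (adjusted p = 0.154) and the level stayed low. The difference was -5.28 ± 0.58 (adjusted p = 0.000160). GPR34, a receptor for lysophosphatidylserine, rose by 5.93 ± 0.37 in U937 (difference -5.40 ± 0.53), and TM4SF1, a small membrane protein related to tetraspanins, by 5.37 ± 0.49 (difference -4.95 ± 0.70). The TM4SF1 rise was 4.08 in U937 pair 2 and 6.02 in the other pairs. P2RX7, the ATP-gated channel that triggers the inflammasome, rose by 3.45 ± 0.23 in U937 against 0.12 ± 0.23 in THP-1 (difference -3.32 ± 0.33).

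The monocyte chemoattractants CCL7 and CCL2 and the chemokine CCL1 followed the same order. CCL7 was at 9.52, 8.24 and 8.50 in U937 with PMA, and at most 3.65 on the other 9 arrays. CCL1 was at 10.00, 9.61 and 9.63 in U937 with PMA and at most 5.23 elsewhere. CCL2 differed in its start: it was at 9.36, 9.81 and 8.11 in U937 with DMSO, 12.02, 12.18 and 11.82 in U937 with PMA, and 4.49, 4.09 and 4.55 and 5.04, 4.40 and 3.95 in THP-1. The differences of effects were -5.08 ± 0.43 for CCL7, -4.34 ± 0.23 for CCL1 and -2.83 ± 0.53 for CCL2, each past the threshold (adjusted p = 2.58e-05, 5.18e-07 and 0.00529).

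**Figure D2:**
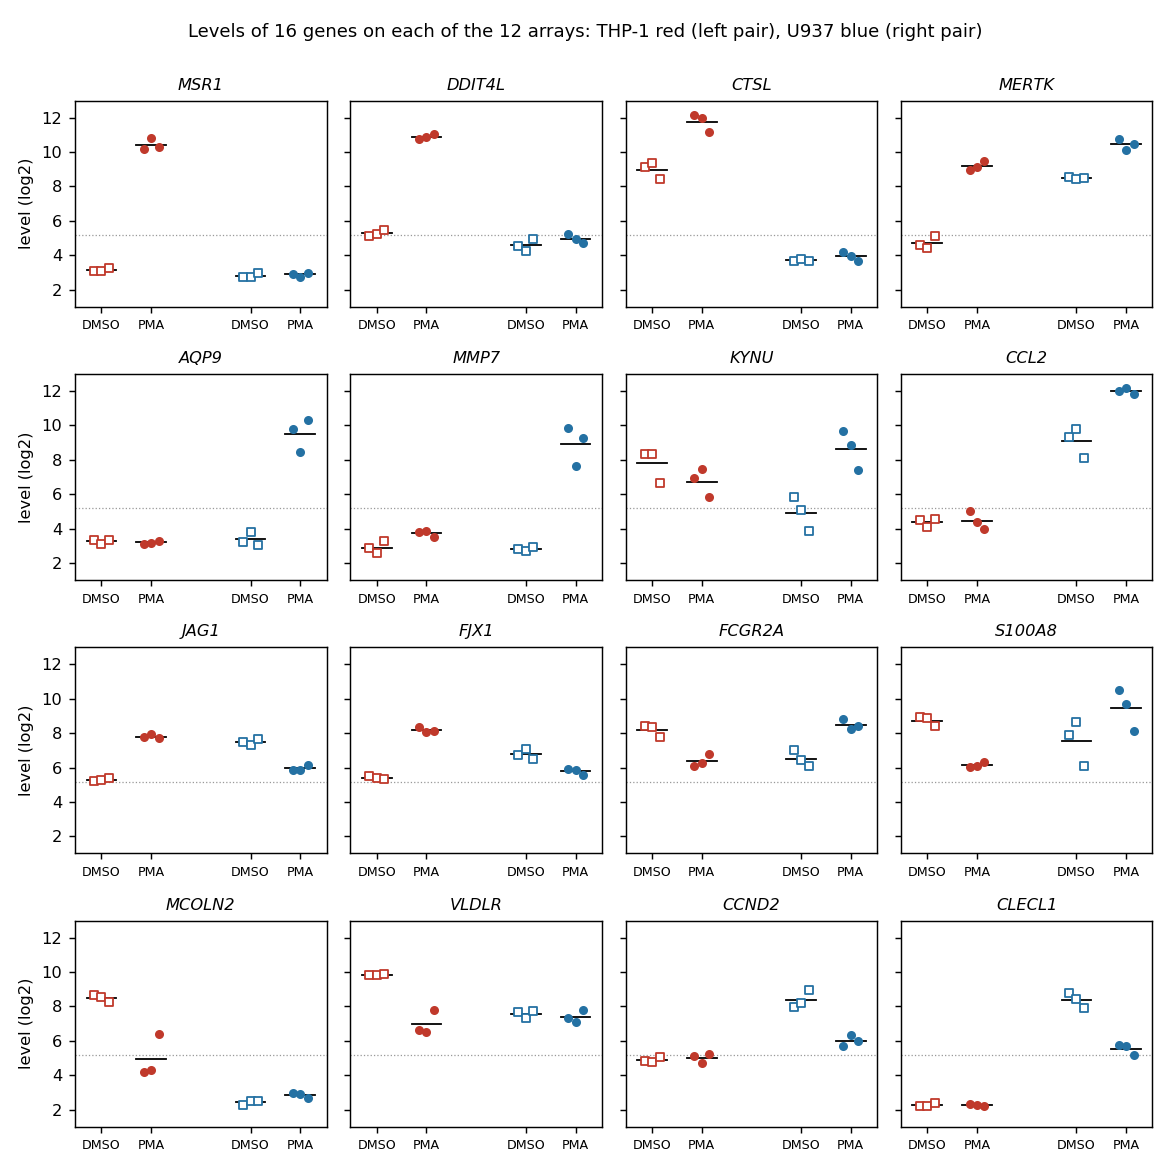
Levels (log2, vertical axis) of 16 genes on each of the 12 arrays, with open squares for DMSO, filled circles for PMA, bars for group means and a dotted line at the low level of 5.18. MSR1, DDIT4L and CTSL rise in THP-1 (red) alone, AQP9, MMP7, KYNU and CCL2 in U937 (blue) alone, and JAG1, FJX1, FCGR2A and S100A8 move in opposite directions.

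Genes that fell in a single line showed a different relation to the starting level. The classes were formed from effects that use the same DMSO arrays as the starting level, so this relation is partly built in. The 308 genes that fell in THP-1 and were not called in U937 had a median DMSO level of 6.55 in THP-1 and 4.12 in U937. Of these, 210 were low in U937 with DMSO and 54 were low in THP-1, against 4962 and 4808 of all 16267 genes. As many as 234 started at least 1 unit higher in THP-1 and 1 started at least 1 unit higher in U937. Over all 16267 genes these counts were 1080 and 931. After PMA, 200 lay within 1 unit of each other, against 73 before. At the genes that were already low in U937, the array could show little of a fall there.

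MCOLN2, a cation channel of lysosomes and recycling endosomes, showed this pattern. It was at 8.66, 8.56 and 8.26 in THP-1 with DMSO and at 4.16, 4.32 and 6.38 with PMA, where replicate 3 was the highest. In U937 it was at 2.29, 2.48 and 2.50 with DMSO and 2.96, 2.92 and 2.69 with PMA, so it was low on every U937 array. The difference was -3.98 ± 0.61 (adjusted p = 0.00150). The cell adhesion molecule NCAM2 fell from 9.25 ± 0.15 to 6.03 ± 0.52 in THP-1 and had a level of 3.23 ± 0.14 in U937 with DMSO (difference -3.51 ± 0.30). The epithelial defensin DEFB1 (difference -3.62 ± 0.65), the meiotic protein MEIOB (-3.45 ± 0.58) and the mitochondrial aldehyde dehydrogenase ALDH2 (-3.37 ± 0.43) fell in THP-1 by 3.13 ± 0.46, 3.05 ± 0.41 and 2.97 ± 0.30. All 3 started higher in THP-1, by 4.37 ± 0.46, 4.86 ± 0.41 and 4.42 ± 0.30.

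The 103 genes that fell only in U937 by these calls mirrored this. Their median DMSO level was 7.29 in U937 and 6.15 in THP-1, 56 started at least 1 unit higher in U937 against 2 in THP-1, and 39 were low in THP-1 against 4 in U937. CLECL1, a lectin-like protein of antigen-presenting cells, fell from 8.81, 8.46 and 7.89 to 5.74, 5.73 and 5.19 in U937. In THP-1 it was at most 2.40 on all 6 arrays. Its difference was 2.84 ± 0.31 (adjusted p = 0.000151), and that of the related lectin CLEC2A, which had a start difference of -5.60 ± 0.29, was 2.49 ± 0.40.

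Cyclin D2 (CCND2), which drives entry into S phase with CDK4 or CDK6, was at 7.94, 8.20 and 8.97 in U937 with DMSO and 5.70, 6.32 and 5.97 with PMA. In THP-1 it was at 4.84, 4.77 and 5.08 with DMSO and 5.10, 4.70 and 5.23 with PMA. The U937 groups were separate and the THP-1 groups overlapped near the low level (difference 2.49 ± 0.36, adjusted p = 0.00103). The deubiquitinase STAMBPL1 (difference 2.09 ± 0.37) and the intraflagellar transport protein IFT57 (2.46 ± 0.59) also started higher in U937, with start differences of -2.74 ± 0.26 and -2.17 ± 0.42. The STAMBPL1 call was lost with brighter probe sets alone (adjusted p from 2.15e-06 to 0.101 over 25 alternatives). The IFT57 call was lost without the 2 U937 arrays numbered 2 and without any one array other than THP-1 DMSO 1, THP-1 DMSO 2, THP-1 PMA 3, U937 DMSO 3 and U937 PMA 2 (adjusted p from 2.86e-07 to 0.0714 over 26 alternatives).

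The 157 genes that rose only in U937 by these calls had a median DMSO level of 6.16 in THP-1 and 5.98 in U937. In 116 of them the lines started within 1 unit, and 39 were low in both lines. Over all 16267 genes these counts were 14256 and 4243. After PMA, 100 were at least 1 unit higher in U937 and 6 at least 1 unit higher in THP-1, against 914 and 1171 of all genes. The class was formed from effects that use the same arrays, so its start and end counts are partly built in. Over all genes, 4112 (25.3%) differed between the lines with DMSO and 4285 (26.3%) with PMA.

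**Figure D3:**
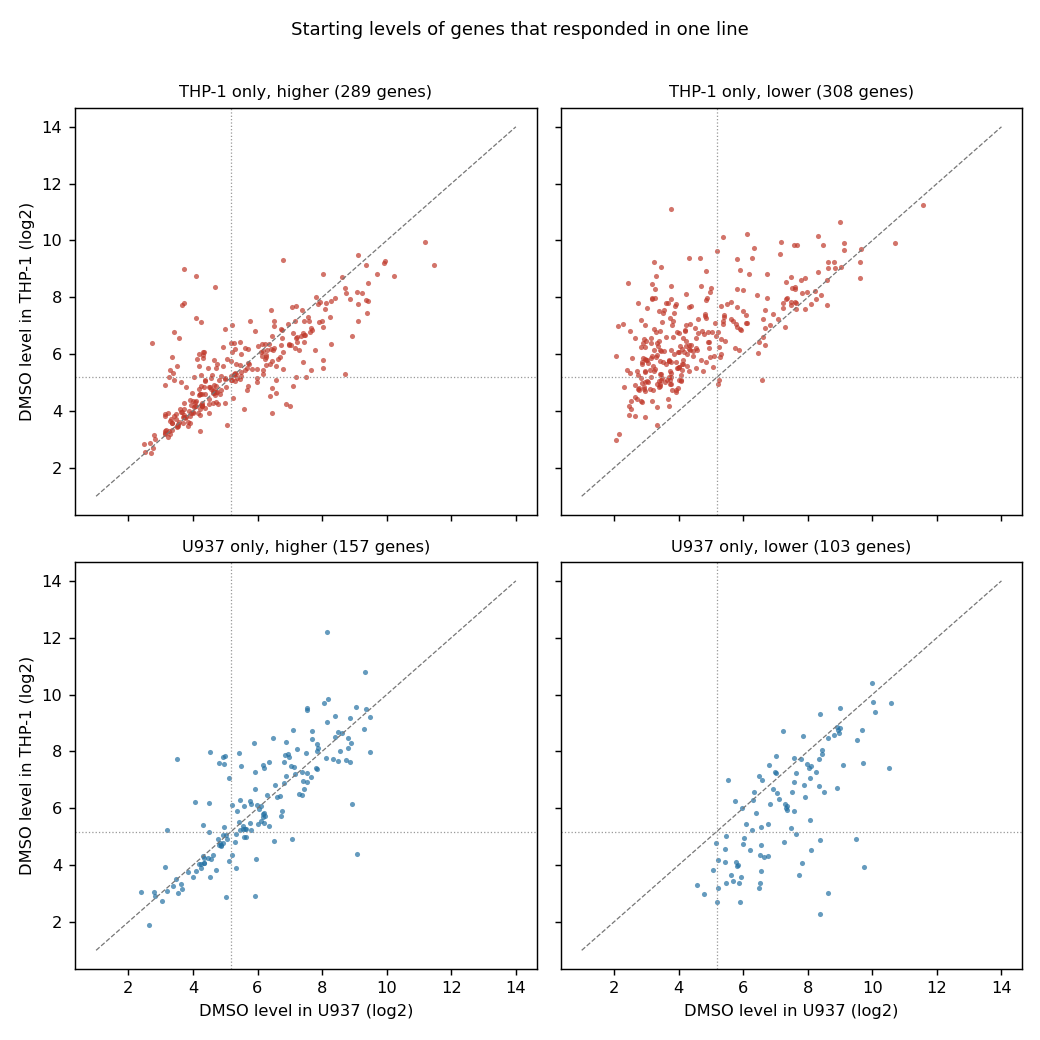
DMSO level in THP-1 (vertical axis, log2) against U937 (horizontal axis, log2) for genes called in a single line, with dotted lines at the low level of 5.18 and a dashed line at equal levels. The 308 genes that fell only in THP-1 lie mostly above the dashed line, with 210 of them low in U937, and the 103 that fell only in U937 lie mostly below it.

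Opposite responses were found at 80 genes, of which 38 rose in THP-1 and fell in U937 and 42 did the reverse. The 38 had a median DMSO level of 5.88 in THP-1 and 7.53 in U937, and 22 started at least 1 unit higher in U937. The 42 had a median DMSO level of 8.07 in THP-1 and 6.81 in U937, and 21 started at least 1 unit higher in THP-1. Over all 16267 genes, 931 started at least 1 unit higher in U937 and 1080 at least 1 unit higher in THP-1. The opposite classes were formed from effects that use the same DMSO arrays, so this relation to the starting level is partly built in. At 21 of the 80 genes the order of the lines turned round with no overlap of arrays in either state. Of these, 13 had U937 above at the start and 8 had THP-1 above. Such turns were not counted over all genes, so whether 21 is more than usual was not tested. Groups of 3 arrays were often separate. The PMA arrays lay beyond the DMSO arrays at 42.4% of all genes in THP-1 and 45.7% in U937. In U937 pair 2 alone, all 80 kept the direction of their U937 effect, but that pair was part of the fit that called them. The count of 80 moved by over 1.5 times when any one of 4 arrays was left out, to 48 without THP-1 DMSO 1, 41 without U937 DMSO 1, 49 without U937 DMSO 2 and 47 without U937 PMA 1.

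JAG1, a ligand of Notch receptors, was at 5.21, 5.28 and 5.36 in THP-1 with DMSO and at 7.75, 7.93 and 7.73 with PMA. In U937 it was at 7.50, 7.31 and 7.68 with DMSO and at 5.83, 5.84 and 6.16 with PMA. The lines exchanged places, and the groups did not overlap in either line or state. The effects were 2.52 ± 0.15 and -1.55 ± 0.15, and the difference was 4.07 ± 0.21 (adjusted p = 5.18e-07), with all 35 probe sets on the same side.

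FJX1, a secreted protein of the four-jointed family, changed places in the same way. It went from 5.52, 5.42 and 5.32 to 8.34, 8.05 and 8.12 in THP-1 and from 6.75, 7.05 and 6.50 to 5.94, 5.87 and 5.58 in U937 (difference 3.72 ± 0.24, adjusted p = 2.69e-06). The sialomucin PODXL (effects 1.76 ± 0.16 in THP-1 and -1.20 ± 0.16 in U937, difference 2.97 ± 0.22) also started higher in U937 and ended higher in THP-1. The tetraspanin TSPAN18 exchanged places too, with no overlap of the lines in either state, although its end difference was not called. TENT5C, a non-canonical poly(A) polymerase, had a start difference of -3.58 ± 0.23 and an end difference of -0.55 ± 0.23 (adjusted p = 0.107), with a difference of effects of 3.02 ± 0.33. TSPAN18 had a start difference of -2.51 ± 0.18 and an end difference of 0.48 ± 0.18 (adjusted p = 0.0646), with a difference of effects of 2.99 ± 0.25. SERPINE2, an inhibitor of thrombin and urokinase, and the sorting receptor SORL1 had differences of 3.45 ± 0.44 and 2.35 ± 0.43. Both started without a called line difference (adjusted p = 0.132 and 0.0613) and ended higher in THP-1, by 2.75 ± 0.31 and 1.50 ± 0.30.

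S100A8, a calcium-binding alarmin of neutrophils and monocytes, led the reverse direction. It was at 8.92, 8.87 and 8.40 in THP-1 with DMSO and at 6.05, 6.10 and 6.35 with PMA. In U937 it was at 7.88, 8.63 and 6.10 with DMSO and at 10.50, 9.72 and 8.11 with PMA. The THP-1 groups were separate, while in U937 the lowest PMA array lay below the highest DMSO array although each number rose. The difference was -4.47 ± 0.86 (adjusted p = 0.00626), from 4 probe sets. The effects were -2.56 ± 0.61 in THP-1 (adjusted p = 0.00646) and 1.91 ± 0.61 in U937 (adjusted p = 0.0353), the second close to the threshold. The U937 effect was 1.08 in pair 2 and 2.32 in the other pairs.

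SLC7A11, the cystine and glutamate exchanger that feeds glutathione synthesis, had no called difference between the lines with DMSO (start difference 0.33 ± 0.34, adjusted p = 0.575). It went from 8.30, 8.49 and 7.74 to 5.61, 6.68 and 6.12 in THP-1 and from 8.11, 7.81 and 7.63 to 10.35, 10.07 and 9.07 in U937. No PMA array overlapped the DMSO arrays of its line, and the difference was -4.02 ± 0.48 (adjusted p = 0.000278). The low-affinity IgG receptor FCGR2A went from 8.40, 8.37 and 7.77 to 6.10, 6.26 and 6.77 in THP-1 and from 7.01, 6.45 and 6.08 to 8.82, 8.24 and 8.42 in U937 (difference -3.79 ± 0.38). FCGR2A has near-identical paralogues, whose RNA may bind the same probes. ITPR1, the inositol trisphosphate receptor that releases calcium from the endoplasmic reticulum, had effects of -1.64 ± 0.27 in THP-1 and 1.73 ± 0.27 in U937 (difference -3.38 ± 0.38). All 67 of its probe sets agreed in sign, and like FCGR2A it turned from higher in THP-1 to higher in U937.

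Other opposite genes kept the order of the lines. SERPINB2, the urokinase inhibitor PAI-2, was higher in U937 throughout, with a start difference of -3.43 ± 0.26 and an end difference of -5.93 ± 0.26 (difference of effects -2.50 ± 0.37). The membrane protein MYADM (difference -2.57 ± 0.28) had no called start difference and ended higher in U937 (end difference -2.86 ± 0.20). PRKCB, a conventional protein kinase C and itself a receptor of PMA, fell by 1.00 ± 0.16 in THP-1 and rose by 1.06 ± 0.16 in U937 (difference -2.06 ± 0.23, adjusted p = 0.000173). The gluconeogenic enzyme FBP1 (-1.99 ± 0.43) and the complement protease CFD (-1.42 ± 0.26) fell from higher THP-1 levels and rose in U937. The FBP1 call was lost with the values as deposited (adjusted p from 3.52e-05 to 0.0814 over 26 alternatives).

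**Figure D4:**
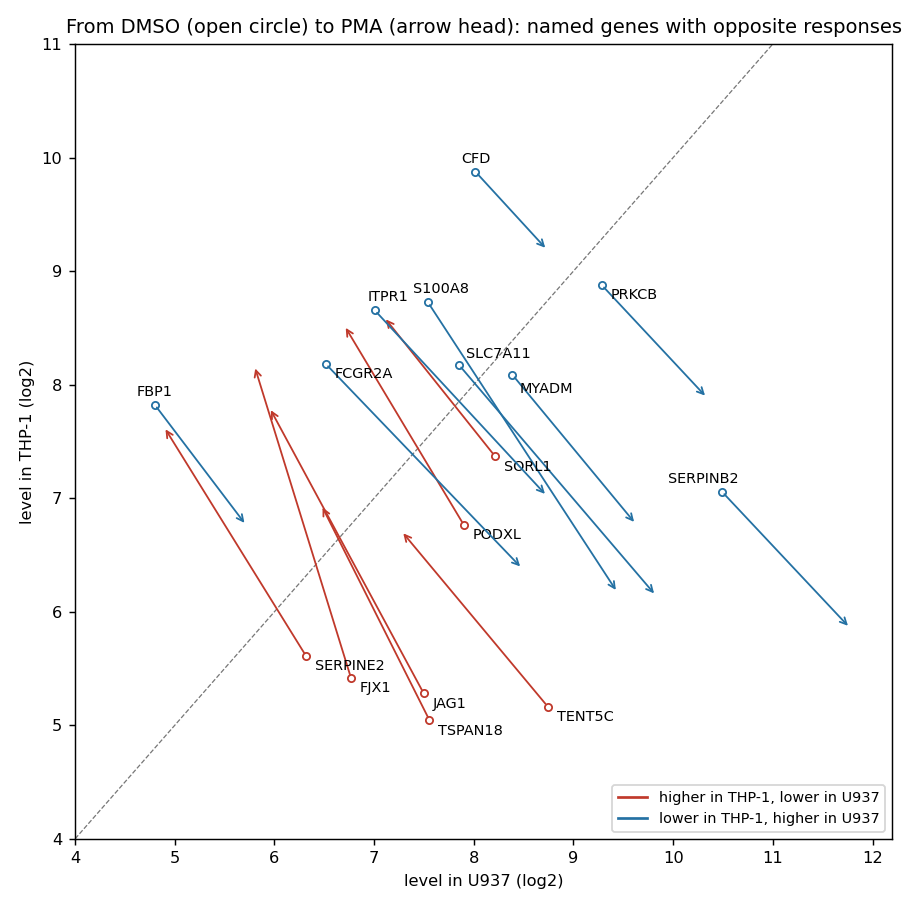
Level in THP-1 (vertical axis, log2) against U937 (horizontal axis, log2) for the 16 named opposite genes, each drawn from its DMSO mean (open circle) to its PMA mean (arrow head). JAG1, FJX1 and PODXL cross the dashed line of equal levels upwards, FCGR2A and ITPR1 cross it downwards, and SERPINB2 and TENT5C stay below it.

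The unequal responses were then counted in lists of genes with shared roles. Over all genes the median difference was 0.01, with 3.42% called greater in THP-1 and 3.55% greater in U937. With the values as deposited, the medians of the MHC class II, amino acid, granulocyte, interferon, interleukin, transcription factor and protein kinase C lists turned sign. Where a count moved by over 1.5 times with the values as deposited, a filter on low values, the replicate block or arrays left out, it is given as genes greater in THP-1 and genes greater in U937; shifts under other gene summaries, variance models and array weights are not listed. Of each list, the called members with the largest differences are named first; a further member was chosen after its values were seen. Chemokines were called in 1 direction: of 21 measured members, 0 were called greater in THP-1, 6 greater in U937 and 15 were not called, with a median difference of -0.46. Within the lines, 6 rose and 0 fell in THP-1, and 14 rose and 0 fell in U937. Besides CCL7, CCL1 and CCL2, the further members were the eosinophil attractant CCL24 (-2.16 ± 0.23), CCL8 (-2.16 ± 0.54) and the interferon-induced CXCL10 (-1.64 ± 0.44). Those numbers were 0 and 3 among genes above the 30th percentile and 0 and 2 with brighter probe sets alone.

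Receptors for chemoattractants leaned the same way: of 16 measured, 0 were called greater in THP-1, 6 greater in U937 and 10 were not called, with a median difference of -0.46. CCR1, which binds several CC chemokines, rose by 0.82 ± 0.24 in THP-1 and 3.55 ± 0.24 in U937 (difference -2.73 ± 0.33), from a start that was higher in THP-1 to an end that was higher in U937. The chemerin receptor CMKLR1 rose by 1.19 ± 0.22 and 3.85 ± 0.22 (difference -2.66 ± 0.31), and from brighter probe sets alone its difference was -1.37. CCR2, the receptor of CCL2, fell in both lines, by 3.46 ± 0.30 in THP-1 and 1.02 ± 0.30 in U937 (difference -2.45 ± 0.42). CCR2 had started 4.80 ± 0.30 higher in THP-1 and stayed higher there, while its ligand CCL2 was higher in U937. Further members greater in U937 were the platelet-activating factor receptor PTAFR (-1.68 ± 0.33), the formyl peptide receptor FPR1 (-1.18 ± 0.30) and the complement receptor C5AR1 (-0.84 ± 0.23). The same counts came to 0 and 3 with the values as deposited and 0 and 3 among genes above the 30th percentile.

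NF-kappaB targets and regulators had 22 measured members, of which 1 was called greater in THP-1, 4 greater in U937 and 17 were not called, with a median difference of -0.47. The early-response gene IER3 rose by 1.84 ± 0.23 in THP-1 and 4.31 ± 0.23 in U937 (difference -2.47 ± 0.32), and the prostaglandin synthase PTGS2 by 0.76 ± 0.27 and 2.60 ± 0.27 (-1.84 ± 0.38). The adaptor TRAF1 (-1.84 ± 0.32) and the further member TNFAIP3 (-1.07 ± 0.26), a feedback inhibitor, were greater in U937 too, and the further member ICAM1 (1.49 ± 0.23), a ligand of beta2 integrins, was greater in THP-1. Counts in that order became 1 and 1 with the values as deposited and 1 and 8 with the replicate block. The PTGS2 and TRAF1 calls were lost with the values as deposited (adjusted p from 0.000143 to 0.0592 over 25 alternatives) for PTGS2 and with the values as deposited (adjusted p from 4.78e-05 to 0.0547 over 26 alternatives) for TRAF1.

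Fc receptors, which bind the constant part of antibodies, had the lowest median of the lists: of 9 measured members, 0 were called greater in THP-1, 3 greater in U937 and 6 were not called, with a median difference of -1.19. In U937 8 of them rose, and in THP-1 5 rose and 1 fell. Beside FCGR2A, the IgG receptor FCGR1A rose by 1.45 ± 0.24 in U937, with a start difference of 2.50 ± 0.24 (difference of effects -1.79 ± 0.33), and also has near-identical copies. The IgA receptor FCAR rose by 0.85 ± 0.18 in THP-1 and 2.36 ± 0.18 in U937 (difference -1.51 ± 0.25). The FCAR call was lost with probe-set medians (adjusted p from 7.72e-05 to 0.205 over 26 alternatives). The called numbers were 0 and 6 with the replicate block and 1 and 3 without U937 DMSO 3.

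Of the 18 measured monocyte and macrophage surface receptors, 2 were called greater in THP-1, 4 greater in U937 and 12 were not called, with a median difference of 0.02. Calls in each direction numbered 2 and 2 with the values as deposited, 2 and 2 among genes above the 30th percentile and 2 and 2 with brighter probe sets alone. TREM1, an amplifier of inflammatory signalling, rose by 1.35 ± 0.32 in THP-1 and 4.06 ± 0.32 in U937 (difference -2.71 ± 0.46). CD86, a co-stimulatory ligand for T cells, rose by 2.81 ± 0.33 in U937 (difference -2.23 ± 0.47), by 1.72 in pair 2 and 3.36 in the other pairs. The CD86 call was lost with the values as deposited (adjusted p from 0.000196 to 0.0843 over 24 alternatives). MERTK, a receptor for the uptake of dying cells, rose in both lines from very different starts, from 4.58, 4.45 and 5.14 to 8.95, 9.13 and 9.51 in THP-1 and from 8.54, 8.43 and 8.48 to 10.74, 10.10 and 10.49 in U937. No MERTK groups overlapped, U937 stayed higher, and the difference of effects was 2.52 ± 0.31. CLEC7A, the receptor of fungal beta-glucans, rose in both lines (difference -1.47 ± 0.35, and -2.39 with probe-set medians). Its THP-1 rise was close to the threshold (adjusted p = 0.0487). The mean level of CLEC7A was low in every group, so its changes were measured only approximately. It was 2.68 with DMSO and 3.38 with PMA in THP-1, and 2.61 and 4.78 in U937. The further member ITGAX, an integrin chain of dendritic cells and macrophages, had a difference of -1.99 ± 0.37. The CLEC7A call was lost with the values as deposited, without the 2 U937 arrays numbered 2 and without any one of THP-1 DMSO 3, THP-1 PMA 1, THP-1 PMA 2, U937 DMSO 1 or U937 DMSO 2 (adjusted p from 0.000389 to 0.137 over 24 alternatives).

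Lipid handling and scavenger receptors leaned towards THP-1: of 20 measured, 6 were called greater in THP-1, 2 greater in U937 and 12 were not called, with a median difference of 0.49. These counts became 6 and 1 with the values as deposited, 8 and 5 with the replicate block, 5 and 1 without U937 DMSO 1 and 5 and 1 without U937 DMSO 2. In THP-1 14 rose and 2 fell, and in U937 12 rose. Beside MSR1, the transmembrane glycoprotein GPNMB rose by 4.15 ± 0.28 in THP-1 and 1.85 ± 0.28 in U937 (difference 2.30 ± 0.39), from a start difference of -3.39 ± 0.28. The further members LPL (2.13 ± 0.19), a lipoprotein lipase, LIPA (1.91 ± 0.36), the lysosomal acid lipase, LRP1 (1.33 ± 0.29) and APOE (0.99 ± 0.25) were greater in THP-1 as well. The lipoprotein receptor VLDLR went the other way, from 9.86, 9.81 and 9.89 to 6.61, 6.52 and 7.78 in THP-1, and from 7.69, 7.36 and 7.71 to 7.35, 7.09 and 7.78 in U937, where the groups overlapped (difference -2.70 ± 0.41). The further member APOC1 had a difference of -1.30 ± 0.30.

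Lysosomal proteins had 26 measured members, of which 4 were called greater in THP-1, 2 greater in U937 and 20 were not called, with a median difference of 0.17. Those numbers were 3 and 1 with the values as deposited, 3 and 1 among genes above the 30th percentile, 4 and 1 with brighter probe sets alone and 3 to 5 and 1 to 2 when any one array was left out (a shift of over 1.5 times with every array except THP-1 PMA 3, U937 DMSO 1 and U937 PMA 2). The cysteine protease CTSL was at 9.16, 9.37 and 8.42 in THP-1 with DMSO and 12.18, 11.96 and 11.19 with PMA, and at most 4.18 on all 6 U937 arrays. It was thus present before PMA in one line alone, and rose further there (difference 2.56 ± 0.39, adjusted p = 0.00146). The proteases CTSC (2.00 ± 0.31) and LGMN (1.94 ± 0.25) had no called start difference and rose in THP-1, by 1.55 ± 0.22 and 2.08 ± 0.18. The further member CTSD (0.99 ± 0.23) was greater in THP-1, and NPC1 (-1.68 ± 0.26), which exports cholesterol from lysosomes, and ATP6V1A (-1.15 ± 0.31) were greater in U937.

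Integrins and adhesion molecules had 29 measured members, of which 7 were called greater in THP-1, 4 greater in U937 and 18 were not called, with a median difference of 0.37. The same counts came to 4 and 4 among genes above the 30th percentile. The integrin chain ITGB3, part of the vitronectin receptor, rose by 2.65 ± 0.14 in THP-1 against 0.29 ± 0.14 in U937 (difference 2.36 ± 0.20). PECAM1, an adhesion molecule of leukocytes and endothelium, rose by 2.63 ± 0.17 in U937 against 0.39 ± 0.17 in THP-1 (difference -2.24 ± 0.24), and THP-1 had started 1.63 ± 0.17 higher. Extracellular matrix proteins had 17 measured members and the highest median of the lists: 5 were called greater in THP-1, 2 greater in U937 and 10 were not called, with a median difference of 0.62. Counts in that order became 3 and 1 with the values as deposited, 4 and 1 with brighter probe sets alone, 3 and 2 without both U937 arrays numbered 2 and 3 to 5 and 2 when any one array was left out (a shift of over 1.5 times with THP-1 DMSO 1, THP-1 DMSO 2, THP-1 PMA 1, THP-1 PMA 2, U937 DMSO 2 and U937 DMSO 3). Thrombospondin 1 (THBS1) rose by 2.79 ± 0.20 in THP-1 against 0.06 ± 0.20 in U937 (difference 2.73 ± 0.29), and the collagen IV chain COL4A2 by 2.01 ± 0.16 against 0.04 ± 0.16 (1.98 ± 0.22, and 1.27 with median polish). The basement membrane protein NID1 fell by 1.85 ± 0.22 in THP-1, from a level 4.08 ± 0.22 above that of U937 (difference -2.10 ± 0.31).

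Matrix proteases and their inhibitors were split evenly: of 23 measured, 3 were called greater in THP-1, 3 greater in U937 and 17 were not called, with a median difference of 0.21. In THP-1 15 rose and 1 fell, and in U937 14 rose. Beside MMP7 and SERPINB2, the broad protease inhibitor A2M rose by 6.88 ± 0.31 in THP-1 and 4.20 ± 0.31 in U937 (difference 2.68 ± 0.43). Complement components and receptors also held large differences of both signs: of 18 measured, 1 was called greater in THP-1, 4 greater in U937 and 13 were not called, with a median difference of 0.01. The called numbers were 1 and 2 with the values as deposited, 1 and 2 among genes above the 30th percentile, 1 and 2 with brighter probe sets alone, 1 and 2 without both U937 arrays numbered 2 and 1 and 2 to 4 when any one array was left out (a shift of over 1.5 times with THP-1 DMSO 1, THP-1 PMA 2, THP-1 PMA 3, U937 DMSO 2, U937 PMA 1 and U937 PMA 3). C3, the central complement component, rose by 4.19 ± 0.37 in U937 (difference -3.43 ± 0.52) after starting 2.59 ± 0.37 higher in THP-1, and the lines ended without a called difference (adjusted p = 0.121). CD59, which blocks the membrane attack complex, rose by 2.76 ± 0.23 in THP-1 against 0.18 ± 0.23 in U937 (difference 2.58 ± 0.32).

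IL1B, the main secreted form of interleukin 1, started apart in the lines and ended without a called difference. Its level was 4.71, 4.22 and 4.65 in THP-1 and 7.11, 6.81 and 6.95 in U937 with DMSO. With PMA it was 11.16, 11.39 and 10.92 in THP-1 and 11.81, 10.83 and 10.84 in U937. The DMSO arrays of the lines were separate and the PMA arrays overlapped (end difference -0.01 ± 0.25, adjusted p = 0.991), and the difference of effects was 2.42 ± 0.35 (adjusted p = 0.00111). Of the 17 measured members of the interleukin 1 system and inflammasome, 1 was called greater in THP-1, 2 greater in U937 and 14 were not called, with a median difference of -0.30. Calls in each direction numbered 1 and 0 with the values as deposited, 1 and 1 among genes above the 30th percentile, 1 and 1 with brighter probe sets alone, 1 and 6 with the replicate block and 1 and 1 to 4 when any one array was left out (a shift of over 1.5 times with THP-1 DMSO 1, THP-1 DMSO 2, U937 DMSO 1, U937 DMSO 2 and U937 PMA 2). The receptor chains IL1R1 (-1.39 ± 0.33) and IL1RAP (-1.16 ± 0.24) were greater in U937, the first through a larger rise and the second through a fall of 1.56 ± 0.17 in THP-1. Their calls were lost with the values as deposited, with brighter probe sets alone, without the 2 U937 arrays numbered 2 and without any one of THP-1 DMSO 1, THP-1 DMSO 2, THP-1 PMA 1, U937 DMSO 1 or U937 DMSO 2 (adjusted p from 0.000794 to 0.203 over 25 alternatives) for IL1R1, and with the values as deposited and without the 2 U937 arrays numbered 2 (adjusted p from 0.000378 to 0.166 over 26 alternatives) for IL1RAP.

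Among 27 other interleukins, colony-stimulating and growth factors, 3 were called greater in THP-1, 2 greater in U937 and 22 were not called, with a median difference of -0.06. These counts became 1 and 1 with the values as deposited, 1 and 0 among genes above the 30th percentile, 1 and 1 with brighter probe sets alone, 6 and 4 with the replicate block, 1 and 2 without both U937 arrays numbered 2 and 1 to 3 and 2 to 3 when any one array was left out (a shift of over 1.5 times with THP-1 PMA 1, U937 DMSO 1, U937 DMSO 2 and U937 PMA 3). The cytokine LIF rose by 3.23 ± 0.29 in U937 against 0.36 ± 0.29 in THP-1 (difference -2.87 ± 0.41), by 2.22 in pair 2 and 3.74 in the other pairs. The anti-inflammatory IL10 (-1.45 ± 0.30) rose in U937, and TGFB1 (1.50 ± 0.24) rose more in THP-1. The IL10 call was lost with the values as deposited and with median polish (adjusted p from 0.000367 to 0.156 over 25 alternatives). Toll-like receptors and their signalling proteins had 19 measured members, of which 1 was called greater in THP-1, 1 greater in U937 and 17 were not called, with a median difference of 0.11. Those numbers were 4 and 2 with the replicate block and 3 and 2 without THP-1 PMA 3. TLR2, a receptor of bacterial lipoproteins, rose by 2.65 ± 0.22 in U937 and ended without a called line difference (start difference 2.40 ± 0.22, end difference 0.20 ± 0.22), with a difference of effects of -2.19 ± 0.32. CD14, the lipopolysaccharide co-receptor, rose by 3.93 ± 0.24 in THP-1 and 1.70 ± 0.24 in U937 (difference 2.23 ± 0.34).

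Primary granule proteins, made at the promyelocyte stage, had 11 measured members, of which 0 were called greater in THP-1, 3 greater in U937 and 8 were not called, with a median difference of -0.50. The same counts came to 1 and 4 with the replicate block, 0 and 1 without THP-1 DMSO 1 and 0 and 1 without THP-1 PMA 2. In THP-1 8 fell, and in U937 4 fell and 1 rose. The haematopoietic serpin SERPINB10 fell by 2.62 ± 0.22 in THP-1 and had an effect of -0.57 ± 0.22 in U937 (difference -2.04 ± 0.32). It was already low in U937 with DMSO (4.33 ± 0.02), so the array could show little of a fall there. Lysozyme (LYZ, -2.60 ± 0.65) and myeloperoxidase (MPO, -1.16 ± 0.27, with group means of 4.97 to 5.90 around the low level) fell in THP-1. Their calls were lost without any one of THP-1 DMSO 1, THP-1 DMSO 2, THP-1 PMA 2, THP-1 PMA 3, U937 PMA 1 or U937 PMA 2 (adjusted p from 3.90e-07 to 0.0804 over 26 alternatives) for LYZ, and with the values as deposited, without the 2 U937 arrays numbered 2 and without any one of THP-1 DMSO 1, THP-1 PMA 2, U937 DMSO 1 or U937 DMSO 2 (adjusted p from 0.000235 to 0.121 over 26 alternatives) for MPO. S100 proteins had 10 measured members, of which 1 was called greater in THP-1, 1 greater in U937 and 8 were not called, with a median difference of 0.07. Counts in that order became 1 and 4 with the replicate block and 1 and 3 without U937 PMA 3. S100A10, the partner of annexin A2, rose by 3.37 ± 0.19 in THP-1 and 1.54 ± 0.19 in U937 (difference 1.82 ± 0.27). The granulocyte colony-stimulating factor receptor CSF3R fell by 1.81 ± 0.19 in THP-1 (difference -1.45 ± 0.27) and was the called member of 12 measured granulocyte markers; its call was lost with the values as deposited (adjusted p from 0.000169 to 0.115 over 26 alternatives).

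Enzymes and carriers of amino acid and tryptophan metabolism were split, with 18 measured members, of which 2 were called greater in THP-1, 4 greater in U937 and 12 were not called, with a median difference of -0.08. The called numbers were 1 and 3 with the values as deposited, 1 and 4 without both U937 arrays numbered 2, 1 and 4 without U937 DMSO 2 and 1 and 4 without U937 PMA 1. Of the 4 greater in U937, SLC7A11 is described above and 3 are enzymes of the kynurenine pathway of tryptophan breakdown. KYNU, kynureninase, was at 5.82, 5.08 and 3.86 in U937 with DMSO and 9.66, 8.86 and 7.42 with PMA. In THP-1 it was at 8.32, 8.36 and 6.68 and 6.92, 7.47 and 5.82, where the groups overlapped although each number was lower with PMA. The THP-1 effect of -1.05 ± 0.66 was not called (adjusted p = 0.244). The difference was -4.77 ± 0.93 (adjusted p = 0.00691). The order of the line means turned from a start difference of 2.86 ± 0.66 to an end difference of -1.91 ± 0.66 (adjusted p = 0.0497, close to the threshold). The PMA arrays of the lines overlapped, with the lowest of U937 at 7.42 and the highest of THP-1 at 7.47. TDO2, which opens the indole ring of tryptophan, rose by 2.96 ± 0.44 in THP-1 and 6.51 ± 0.44 in U937 (difference -3.55 ± 0.62), and the further member KMO had a difference of -1.89 ± 0.39. The further members SLC7A8 (1.77 ± 0.23), a neutral amino acid carrier, and SLC1A3 (0.92 ± 0.21), a glutamate carrier, were greater in THP-1. Glycolysis had 27 measured members, of which 0 were called greater in THP-1, 2 greater in U937 and 25 were not called, with a median difference of 0.04. Calls in each direction numbered 0 and 0 with the values as deposited, 1 and 2 with the replicate block and 1 and 2 without U937 DMSO 3. Beside FBP1, the hexokinase HK3 rose more in U937 (-1.28 ± 0.25), a call that was lost with the values as deposited (adjusted p from 0.00123 to 0.165 over 26 alternatives).

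Transcription factors of the AP-1, EGR and immediate early list had 30 measured members, of which 4 were called greater in THP-1, 2 greater in U937 and 24 were not called, with a median difference of -0.17. These counts became 4 and 1 among genes above the 30th percentile and 2 and 2 without both U937 arrays numbered 2. In the separate lines, 21 rose and 0 fell in THP-1, and 24 rose and 0 fell in U937. KLF4, a factor of monocyte differentiation, rose by 1.94 ± 0.30 in THP-1 and had an effect of -0.56 ± 0.30 in U937 (difference 2.51 ± 0.43). FOS (-1.97 ± 0.42) and EGR3 (-1.96 ± 0.26) rose in U937, by 2.65 ± 0.30 and 2.18 ± 0.18, and the EGR3 difference was -1.09 from brighter probe sets alone. Of 31 measured myeloid and progenitor transcription factors, 2 were called greater in THP-1, 3 greater in U937 and 26 were not called, with a median difference of -0.08. Those numbers were 2 and 0 with the values as deposited, 3 and 7 with the replicate block, 2 and 0 without both U937 arrays numbered 2 and 2 and 0 to 3 when any one array was left out (a shift of over 1.5 times with every array except THP-1 DMSO 2, THP-1 PMA 1, THP-1 PMA 3, U937 DMSO 3 and U937 PMA 1). MAF, a factor of macrophage identity, rose by 2.91 ± 0.16 in THP-1 with a start difference of 0.00 ± 0.16 from U937, and its difference of effects was 2.60 ± 0.22 and 1.63 from brighter probe sets alone. ID3, an inhibitor of E proteins, rose by 2.92 ± 0.23 in THP-1 (difference 2.41 ± 0.33), and ZEB2 fell there by 1.51 ± 0.23 (difference -1.25 ± 0.33). The ZEB2 call was lost with the values as deposited, with gene-median centring, without the 2 U937 arrays numbered 2 and without any one array other than THP-1 DMSO 1, THP-1 PMA 3, U937 DMSO 3 and U937 PMA 1 (adjusted p from 0.00101 to 0.200 over 26 alternatives).

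MEIS1, a partner of HOXA9 in leukaemia, was the called member of 18 measured HOXA, MEIS and PBX factors. The same counts came to 2 and 0 with the replicate block. It fell by 1.81 ± 0.16 in U937, with a start difference of -5.82 ± 0.16 (difference of effects 2.00 ± 0.23). HOXA9 was not called (difference 0.63 ± 0.46, adjusted p = 0.617). Protein kinase C and diacylglycerol signalling had 24 measured members, of which 2 were called greater in THP-1, 3 greater in U937 and 19 were not called, with a median difference of -0.09. Counts in that order became 1 and 1 with the values as deposited, 2 and 1 among genes above the 30th percentile, 1 and 4 with brighter probe sets alone, 1 and 2 without both U937 arrays numbered 2 and 1 to 2 and 3 to 4 when any one array was left out (a shift of over 1.5 times with every array except THP-1 PMA 3 and U937 PMA 2). Beside PRKCB, RASGRP3, an exchange factor that binds diacylglycerol, rose by 2.19 ± 0.31 in THP-1 and 4.32 ± 0.31 in U937 (difference -2.13 ± 0.44). The kinase PRKD3 fell by 1.24 ± 0.24 in THP-1, from a level 4.34 ± 0.24 above that of U937 (difference -1.50 ± 0.33). The RASGRP3 call was lost with the values as deposited (adjusted p from 6.37e-06 to 0.0739 over 25 alternatives), and the PRKD3 call with the values as deposited, with probe-set medians and without the 2 U937 arrays numbered 2 (adjusted p from 0.000798 to 0.128 over 25 alternatives). Of 20 measured G protein regulators, 3 were called greater in THP-1, 1 greater in U937 and 16 were not called, with a median difference of 0.06. The called numbers were 3 and 0 with the values as deposited, 7 and 2 with the replicate block, 3 and 0 without both U937 arrays numbered 2 and 3 to 4 and 0 to 1 when any one array was left out (a shift of over 1.5 times with every array except THP-1 PMA 3 and U937 PMA 2). The arrestin ARRB2 (1.70 ± 0.25) and RGS10 (1.26 ± 0.19) were greater in THP-1 and the receptor kinase GRK3 (-1.42 ± 0.38) greater in U937. The GRK3 call was lost with the values as deposited, without the 2 U937 arrays numbered 2 and without any one array other than THP-1 PMA 3 and U937 PMA 2 (adjusted p from 0.000697 to 0.276 over 26 alternatives).

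DNA replication genes had 39 measured members, of which 0 rose and 32 fell in THP-1, and 0 rose and 37 fell in U937. For the difference, 3 were called greater in THP-1, 0 greater in U937 and 36 were not called, with a median difference of 0.40. Calls in each direction numbered 5 and 0 with the replicate block, 1 and 0 without both U937 arrays numbered 2 and 0 to 3 and 0 when any one array was left out (a shift of over 1.5 times with every array except U937 DMSO 3 and U937 PMA 2). GINS2 (1.88 ± 0.46), MCM5 (1.02 ± 0.27) and E2F2 (0.64 ± 0.17) were greater in THP-1, with U937 effects of -2.78 ± 0.32, -1.96 ± 0.19 and -1.09 ± 0.12. The GINS2 call was lost without the 2 U937 arrays numbered 2 and without any one of THP-1 DMSO 3, THP-1 PMA 1, THP-1 PMA 2, U937 DMSO 1, U937 DMSO 2 or U937 PMA 3 (adjusted p from 1.40e-05 to 0.0861 over 26 alternatives). That of MCM5 was lost with trended robust moderation and without any one array other than U937 DMSO 3 and U937 PMA 2 (adjusted p from 0.00336 to 0.104 over 26 alternatives), and that of E2F2 with the values as deposited, with gene-median centring, with probe-set medians, with brighter probe sets alone, without the 2 U937 arrays numbered 2 and without any one array other than U937 PMA 2 (adjusted p from 0.0131 to 0.186 over 26 alternatives). Of 34 measured mitosis genes, 33 fell in each line, and limma called none for the difference (2 at an unadjusted p under 0.05, median difference -0.36). These counts became 0 and 3 with the replicate block, 0 and 3 without THP-1 PMA 3 and 0 and 1 without U937 PMA 1. Of 14 measured CDK inhibitors, D cyclins and their kinases, 3 were called greater in THP-1, 0 greater in U937 and 11 were not called, with a median difference of 0.07. Those numbers were 3 and 1 with the replicate block and 3 and 1 without THP-1 PMA 1. Cyclin D1 (CCND1) rose by 3.18 ± 0.16 in THP-1 and 0.64 ± 0.16 in U937 (difference 2.54 ± 0.23), and CDK6 fell by 2.14 ± 0.25 in U937 against an effect of -0.27 ± 0.25 in THP-1 (difference 1.87 ± 0.35). The CDK inhibitor CDKN1A rose in both lines, by 3.26 ± 0.18 and 3.60 ± 0.18, and its difference was not called (-0.34 ± 0.25, adjusted p = 0.615).

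Of 13 measured MHC class II genes, 1 was called greater in THP-1, 1 greater in U937 and 11 were not called, with a median difference of -0.13. The same counts came to 1 and 0 with the values as deposited, 1 and 0 among genes above the 30th percentile, 1 and 3 with the replicate block, 1 and 0 without both U937 arrays numbered 2 and 1 and 0 to 2 when any one array was left out (a shift of over 1.5 times with every array except THP-1 PMA 1, THP-1 PMA 3 and U937 DMSO 3). IFI30, the thiol reductase of the antigen-processing compartment, rose by 4.62 ± 0.32 in THP-1 and 1.36 ± 0.32 in U937 (difference 3.26 ± 0.45), from a start difference of -3.02 ± 0.32 to an end difference of 0.25 ± 0.32. HLA-DRA fell by 1.12 ± 0.26 in THP-1 (difference -1.37 ± 0.37), and that call was lost with the values as deposited, with probe-set medians, with median polish, without the 2 U937 arrays numbered 2 and without any one array other than THP-1 DMSO 3, THP-1 PMA 1 and U937 DMSO 3 (adjusted p from 0.00114 to 0.259 over 24 alternatives). The class II transactivator CIITA was not called (difference -0.20 ± 0.22). Of 30 measured interferon-stimulated genes, 3 were called greater in THP-1, 1 greater in U937 and 26 were not called, with a median difference of -0.10. Counts in that order became 3 and 0 with the values as deposited, 1 and 1 among genes above the 30th percentile, 4 and 7 with the replicate block, 3 and 0 without both U937 arrays numbered 2 and 3 and 0 to 4 when any one array was left out (a shift of over 1.5 times with every array except THP-1 DMSO 2, THP-1 PMA 1, THP-1 PMA 3 and U937 DMSO 2). USP18 (1.59 ± 0.23, and 2.43 with probe-set medians), GBP1 (1.54 ± 0.26) and GBP2 (1.53 ± 0.24) rose in THP-1, and the further member IRF9 was greater in U937 (-0.85 ± 0.22). The GBP1 and GBP2 calls were lost with probe-set medians (adjusted p from 0.000120 to 0.205 over 25 alternatives) for GBP1 and with probe-set medians (adjusted p from 4.84e-05 to 0.0534 over 25 alternatives) for GBP2.

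Siglecs and C-type lectins had 27 measured members, of which 4 were called greater in THP-1, 1 greater in U937 and 22 were not called, with a median difference of 0.01. The called numbers were 4 and 0 with the values as deposited, 2 and 0 among genes above the 30th percentile, 1 and 0 with brighter probe sets alone, 3 and 0 without both U937 arrays numbered 2 and 3 to 5 and 0 to 1 when any one array was left out (a shift of over 1.5 times with THP-1 DMSO 3, THP-1 PMA 2, U937 DMSO 1 and U937 DMSO 2). The siglec CD22, known from B cells, rose by 3.89 ± 0.14 in THP-1 and 1.92 ± 0.14 in U937 (difference 1.97 ± 0.20). CLEC12B fell in U937 (difference 1.27 ± 0.27), and its call was lost with probe-set medians and with brighter probe sets alone (adjusted p from 0.000321 to 0.350 over 25 alternatives). Dendritic cell and osteoclast markers had 17 measured members, of which 2 were called greater in THP-1, 1 greater in U937 and 14 were not called, with a median difference of 0.17. Calls in each direction numbered 0 and 1 among genes above the 30th percentile, 0 and 1 with brighter probe sets alone, 2 and 2 with the replicate block, 1 and 1 without both U937 arrays numbered 2 and 1 to 2 and 1 to 2 when any one array was left out (a shift of over 1.5 times with THP-1 DMSO 3, THP-1 PMA 1, THP-1 PMA 2 and U937 DMSO 1). The fusion receptor DCSTAMP rose by 3.86 ± 0.29 in THP-1 and 6.42 ± 0.29 in U937 (difference -2.56 ± 0.41), while the lipid antigen-presenting CD1C (1.68 ± 0.28) and CD1A (1.39 ± 0.33) rose in THP-1. These calls were lost with probe-set medians (adjusted p from 3.64e-06 to 0.0505 over 26 alternatives) for DCSTAMP, with probe-set medians and with brighter probe sets alone (adjusted p from 0.000128 to 0.354 over 25 alternatives) for CD1C, and with brighter probe sets alone, without the 2 U937 arrays numbered 2 and without any one of THP-1 PMA 1, THP-1 PMA 2 or U937 DMSO 1 (adjusted p from 0.00249 to 0.271 over 25 alternatives) for CD1A.

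**Figure D5:**
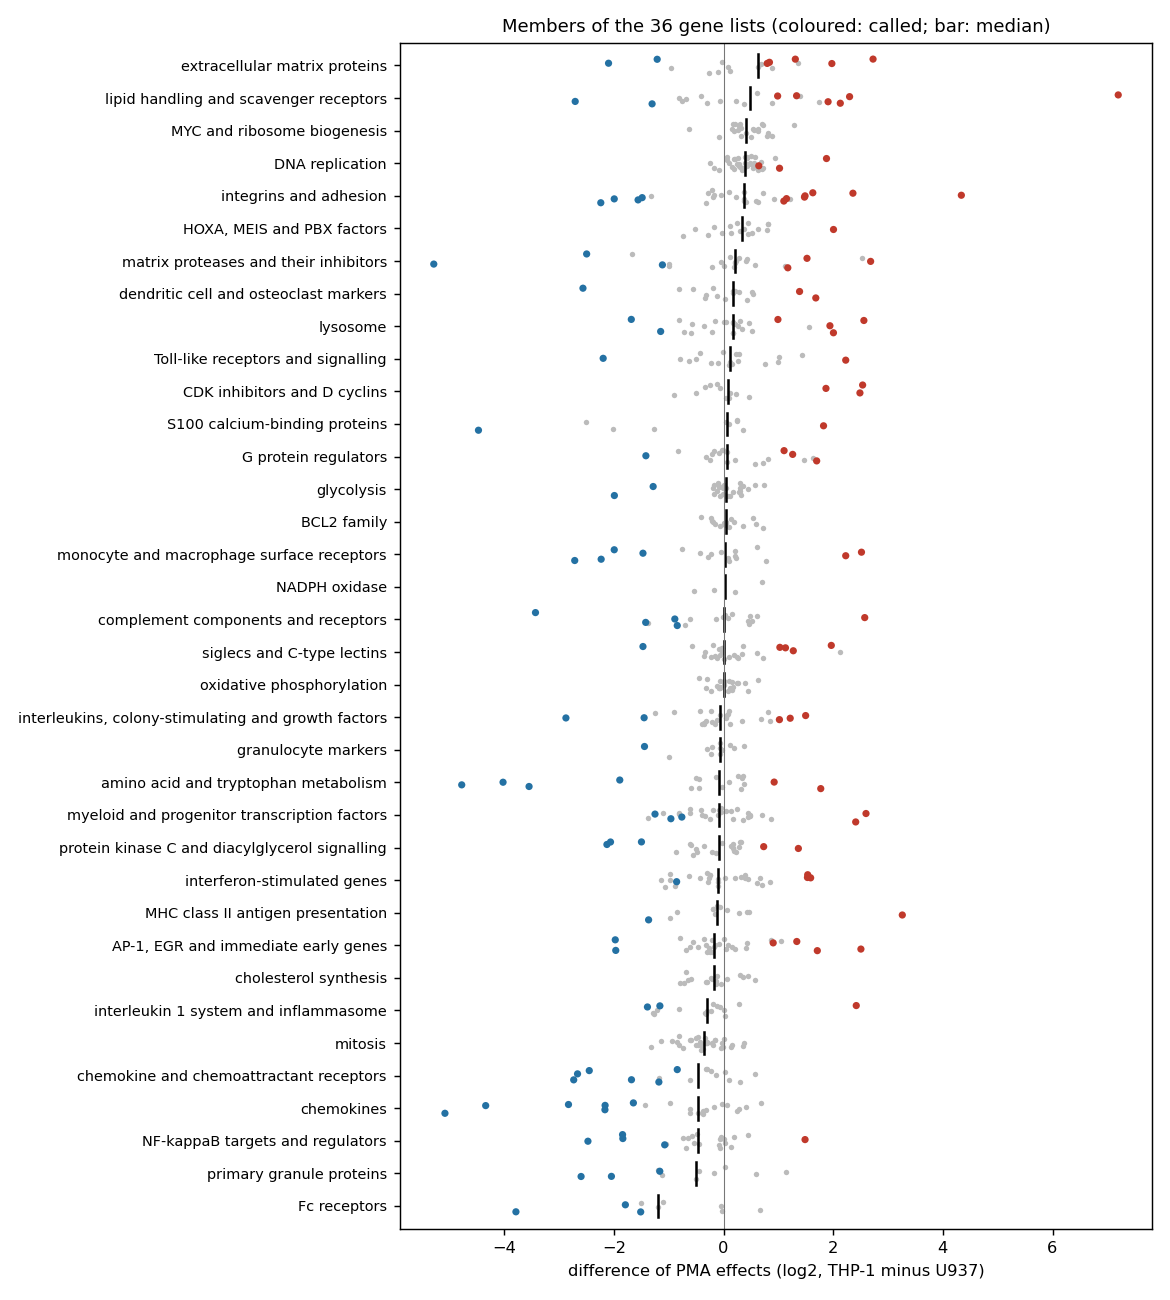
Difference of PMA effects (log2, THP-1 minus U937, horizontal axis) for the measured members of 36 gene lists, ordered by median (bar), with called members in red (greater in THP-1) or blue (greater in U937) and the others in grey. The 6 called chemokines and the 6 called chemoattractant receptors are all blue, and mitosis, oxidative phosphorylation, cholesterol synthesis, BCL2 family, NADPH oxidase and MYC and ribosome biogenesis hold no called member.

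Other lists showed no called difference in limma's fit. Oxidative phosphorylation (25 measured), cholesterol synthesis (18) and NADPH oxidase (4) had no member at an unadjusted p under 0.05 either. The BCL2 family (18 measured) had 2 such members, and MYC and ribosome biogenesis (23 measured) had 4, all without a call after adjustment. For MYC and ribosome biogenesis the counts were 5 and 0 with the replicate block and 0 to 1 and 0 when any one array was left out (a shift of over 1.5 times with THP-1 DMSO 2, THP-1 PMA 3, U937 DMSO 3 and U937 PMA 2). For cholesterol synthesis they were 0 and 1 with the replicate block. The list medians were 0.00, -0.18, 0.02, 0.04 and 0.40 for oxidative phosphorylation, cholesterol synthesis, NADPH oxidase, the BCL2 family and MYC and ribosome biogenesis. The median SE of a difference was 0.26.

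Several landmark genes of the PMA response were not called for the difference without the block. The secreted phosphoprotein SPP1 rose by 8.46 ± 0.31 in THP-1 and 7.47 ± 0.31 in U937 (difference 0.99 ± 0.44, adjusted p = 0.278), and the gelatinase MMP9 by 4.64 ± 0.19 and 4.68 ± 0.19 (difference -0.04 ± 0.27). The integrin chain ITGAM rose by 3.07 ± 0.39 and 3.11 ± 0.39 (difference -0.04 ± 0.55). MYB, a factor of immature blood cells, fell by 2.85 ± 0.35 and 2.77 ± 0.35 (difference -0.08 ± 0.49), and MYC had a difference of 0.69 ± 0.45. SPP1 was called greater in THP-1 with the replicate block (adjusted p = 0.0379) and with array weights (1.42, adjusted p = 0.00502). Leaving out THP-1 DMSO 3 gave SPP1 a difference of 1.42 (adjusted p = 0.0155), within an adjusted p range of 0.00502 to 0.568. MYC was called with the block (adjusted p = 0.0450, range 0.0450 to 0.803). The signs of the MMP9, ITGAM and MYB differences turned under other scalings or with single arrays left out. The macrophage growth factor receptor CSF1R rose by 3.15 ± 0.19 and 2.95 ± 0.19 (difference 0.20 ± 0.27), from a start that was 2.01 ± 0.19 higher in THP-1 to an end difference of 2.22 ± 0.19.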

How the data were processed

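RNA of 12 samples (THP-1 and U937, PMA or DMSO, 3 per group) was measured on Affymetrix Human Exon 1.0 ST arrays. The values deposited by the authors are log2 probe-set values made with Affymetrix Expression Console, per the submitters' processing notes; how background was corrected and values normalized is not given in the sources used here. Precision is limited by the number of arrays.

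Of 287329 probe sets, 261273 had exactly 1 gene symbol in the platform annotation, 9155 several and 16901 none. Of 16941 symbols, 14546 were current in RefSeq, 2260 were updated and 135 kept. Each array was centred on its median over all probe sets, and genes with at least 3 single-symbol probe sets were summarised by averaging those.

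limma 3.58.1 (R 4.3.3, data.table version 1.17.8) fitted 4 group means (8 residual, 12.31 total degrees of freedom), with Benjamini-Hochberg adjustment over 16267 genes. The fit was tested on simulated data. Figures used matplotlib 3.10.9 (Python 3.11.15, pandas 2.3.3). The reported fit had no replicate block. Deviations of same-numbered DMSO and PMA arrays from their group means correlated at 0.28 to 0.65 in all 6 pairs. Those of differently numbered arrays of a line correlated at -0.65 to 0.44, so the ranges overlap. Whether the numbers pair the samples is therefore not settled, and the labels do not state it. If they do, the p-values of the reported fit leave that pairing out. Blocked values are given where they move a count by over 1.5 times.

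Named genes are, among called ones, the 10 largest differences per direction with DMSO and PMA arrays separate in the line with the larger effect, the 6 opposite genes per orientation with the largest smaller effect, the 5 largest per class of genes called in 1 line (effect under 0.5 in the other), and up to 3 per gene list (41 lists, of which 5 hold cell type markers), plus 12 fixed genes. The members and lists were chosen with earlier results of these data known. Alternatives were other scalings, gene summaries, filters on low values, variance models, array weights, all 18 arrays, a batch term for both U937 arrays numbered 2 or their removal, and leaving out each array in turn.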

Additional observations from a re-analysis of the deposited data

Results flagged for a closer look

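The test of the difference between the lines itself singled out 1133 genes, and 80 of them were called in both lines with opposite signs. Among the named genes with opposite signs, the difference of effects (THP-1 minus U937, log2) was 4.07 ± 0.21 for JAG1, 3.72 ± 0.24 for FJX1 and 3.45 ± 0.44 for SERPINE2. It was 3.02 ± 0.33 for TENT5C, 2.99 ± 0.25 for TSPAN18, 2.97 ± 0.22 for PODXL and 2.35 ± 0.43 for SORL1. In the reverse direction it was -4.47 ± 0.86 for S100A8, -4.02 ± 0.48 for SLC7A11 and -3.79 ± 0.38 for FCGR2A. ITPR1 had -3.38 ± 0.38, MYADM -2.57 ± 0.28, SERPINB2 -2.50 ± 0.37, PRKCB -2.06 ± 0.23, FBP1 -1.99 ± 0.43 and CFD -1.42 ± 0.26.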

How the results depend on the processing

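All 1133 genes kept the sign of their difference in every alternative in which they were tested, and 81 of the 110 named genes that were called stayed called in all of theirs. The alternatives share arrays with the fit that called the genes, so the kept signs are not an independent check. With the values as deposited the counts were 538 in all, 362 greater in THP-1, 176 greater in U937, 33 opposite, 319 THP-1 only, 130 U937 only and 55 the same way. With array weights, whose estimation did not reach its convergence tolerance, they were 2418, 1186, 1232, 312, 622 U937 only and 646 the same way, and 8855 genes differed with DMSO. With the replicate block they were 2127, 1110, 1017, 171, 554 U937 only and 512 the same way; the DMSO difference between lines cannot be estimated with that block. Without both U937 arrays numbered 2 they were 710, 348, 362, 38, 170 U937 only and 96 the same way. Genes changed the same way numbered 123 with probe-set medians. Restricting to genes above the 30th percentile left 348 greater in U937 and 330 THP-1 only, and restricting to such probe sets left 357 THP-1 only. Leaving out 1 array gave 809 to 1168 genes, 403 to 600 greater in THP-1, 398 to 568 greater in U937, 41 to 78 opposite, 453 to 613 THP-1 only, 179 to 276 U937 only and 102 to 197 the same way, and 3262 to 4241 with DMSO. The cause of these shifts was not tested.

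Among the named genes, signs turned in 3 that were not called, and the cause was not tested. Sign changes at the other genes that were not called were not counted. MYB was 0.070 as deposited and 0.092 without both U937 arrays numbered 2. Over fits without 1 array it ran from -0.64 to 0.21, above 0 without THP-1 PMA 1 (0.21), THP-1 PMA 2 (0.18) or U937 PMA 2 (0.034). ITGAM was 0.11 as deposited, 0.019 after quantile normalization and 0.51 with array weights. It ran from -0.39 to 0.39, above 0 without THP-1 DMSO 3 (0.38), THP-1 PMA 2 (0.15), U937 DMSO 2 (0.0073) or U937 PMA 3 (0.39). MMP9 was 0.11 as deposited and 0.048 with array weights. It ran from -0.19 to 0.15, above 0 without THP-1 DMSO 3 (0.0052), THP-1 PMA 3 (0.15), U937 DMSO 3 (0.057) or U937 PMA 1 (0.079). The SEs of the MYB, ITGAM and MMP9 differences were 0.49, 0.55 and 0.27, against a median SE of 0.26 over all genes. At other genes, levels near the low level also limit what could be called.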

Other observations

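HL60, a promyelocytic line treated in the same way on the other 6 arrays, enters no comparison above. Its mean levels (log2, 3 arrays each) are set beside genes that separate THP-1 from U937. Of the THP-1 rises, MSR1 was at 2.94 ± 0.09 with DMSO and 4.86 ± 0.68 with PMA, DDIT4L at 5.80 ± 0.18 with DMSO and 9.31 ± 0.03 with PMA and CD9 at 5.10 ± 0.17 with DMSO and 11.89 ± 0.35 with PMA. Of the U937 rises, AQP9 was at 5.01 ± 0.66 with DMSO and 11.07 ± 0.21 with PMA, MMP7 at 3.18 ± 0.14 with DMSO and 9.41 ± 0.76 with PMA and KYNU at 3.13 ± 0.24 with DMSO and 4.70 ± 0.68 with PMA. Of the opposite genes, JAG1 was at 7.81 ± 0.94 with DMSO and 8.29 ± 0.41 with PMA, S100A8 at 10.38 ± 0.56 with DMSO and 5.42 ± 0.53 with PMA and SLC7A11 at 8.13 ± 0.97 with DMSO and 8.48 ± 1.30 with PMA. The HL60 changes were not tested against the other lines.

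The difference of a gene is the mean over its probe sets, and called genes were selected by that difference. Agreement of probe sets above that of all genes is therefore partly built in. In called genes a median of 97.1% of probe sets had the sign of the gene's difference, against 72.2% over all genes, and in 550 of 1133 all probe sets had it. In 9 called genes fewer than 70% did, namely MT1A, HTRA1, TGM5, FCMR, PYGO1, RNF175, CACNA2D3, GPM6B and LYPD6, which were chosen after their values were seen. CACNA2D3, for example, had 29 of 43 probe sets on the side of its difference of -1.03. Exon usage was not tested.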
